A study of Mus musculus with 24 samples.

Results

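Med13l encodes a large subunit of the Mediator kinase module, and its circular RNAs were examined in mouse cardiac fibroblasts after pressure overload. A circular RNA forms when the end of a downstream exon is spliced back to the start of an upstream one, and it is counted by reads across that back-splice junction. All rows of the deposited table whose junction ends matched Med13l exon edges on the row's strand were taken: 2 of 1717 circular RNAs. One consists of exon 2 alone and the other joins exons 3 and 4. The gene was chosen by its junction reads in these libraries, that is by its high level and its difference between the operated groups, so those values are given as a description, without a test.

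The libraries came from cardiac fibroblasts of male C57BL/6J mice that were 8 weeks old at surgery. The operated mice had transverse aortic constriction (TAC), in which a suture narrows the aorta and loads the left ventricle with pressure; the others had a sham operation. There were 4 TAC and 4 sham libraries at 1 week, 4 TAC and 5 sham libraries at 4 weeks, and 3 TAC and 4 sham libraries at 8 weeks after surgery. Cells were released by enzyme perfusion on a Langendorff apparatus, and no sort or gate on cell type is given in the sources used here. Whether each library is a different animal is not stated in the labels; p-values therefore refer to library-to-library spread, part of which may be technical. Each library held 3595 to 9146 junction reads, with a median of 5668.5.

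Mediator is the large complex that passes signals from transcription factors bound to enhancers to RNA polymerase II. Its kinase module, made of CDK8 or CDK19, cyclin C, MED12 or MED12L, and MED13 or MED13L, binds core Mediator reversibly. MED13 and MED13L are the alternative subunits that tether the kinase to the core complex. In humans, loss of one MED13L copy causes a developmental disorder in which heart defects can occur. The table counts back-splice junctions only, so the values below say nothing of the linear Med13l mRNA, which was not analysed here.

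The sequences of both Med13l circles are shown because their joined ends are what the junction reads identify. They are GENCODE M21 exons in mm10, on the plus strand of chromosome 5, written 5′ to 3′; capitals mark the first 20 and last 20 bases, which meet at the back-splice. The exon 2 circle covers chr5:118593333-118593570 and the exons 3 to 4 circle runs from 118671013 to 118680971 on the same chromosome.
Med13l exon 2 circle: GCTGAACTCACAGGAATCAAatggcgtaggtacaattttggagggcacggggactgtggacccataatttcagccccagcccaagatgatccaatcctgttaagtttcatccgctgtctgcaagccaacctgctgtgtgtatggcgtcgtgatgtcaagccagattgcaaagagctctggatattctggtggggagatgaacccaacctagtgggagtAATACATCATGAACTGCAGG
Med13l exons 3 to 4 circle: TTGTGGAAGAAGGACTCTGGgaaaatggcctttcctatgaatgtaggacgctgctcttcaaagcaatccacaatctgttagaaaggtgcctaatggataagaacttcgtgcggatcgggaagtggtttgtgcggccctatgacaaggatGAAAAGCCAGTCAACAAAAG
Both lie inside the coding sequence of the transcript ENSMUST00000100816.7, which has 31 exons.

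The exon 2 circle is 238 nt long and the exons 3 to 4 circle 169 nt. Both lengths leave a remainder of 1 on division by 3, so a reading frame that crosses the junction shifts at each turn. In the closed exon 2 circle there are 6 ATG triplets and 10 stop triplets over all 3 frames, and the longest run from an ATG to a stop is 252 nt. The exons 3 to 4 circle holds 6 ATG and 7 stop triplets, with a longest run of 237 nt. These are properties of the letters, and no measurement of translation is part of the table.

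Exon 2 of Med13l is flanked by long introns, of 32475 bp upstream and 77442 bp downstream. Among 1657 circular RNAs with both ends at exon edges of one transcript, 96.8% had a shorter downstream intron (median 9574 bp). An upstream intron was annotated for 1653 of them, and 83.7% of these were shorter (median 11063 bp). The circle itself was short: 10.2% of the 1657 had less exonic sequence (median 421 nt). Its GC content was 50%, against a median of 49.3%. Starting at exon 2 was common in the table, with 555 circles (33.5%), while 105 circles (6.34%) had a single exon and 55 (3.32%) were exon 2 alone.

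**Figure D1:**
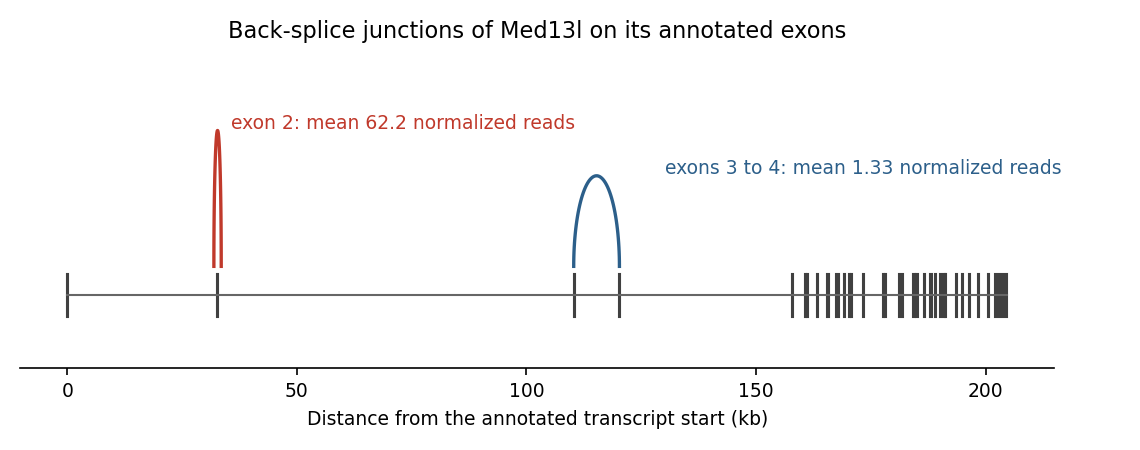
The annotated exons of Med13l (grey boxes) are drawn against distance from the transcript start in kb, and each arc joins the 2 ends of a circular RNA. The exon 2 arc, widened to be visible, stands alone between 2 long introns and carries a mean of 62.2 normalized reads, against 1.33 for exons 3 to 4.

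Exon 2 carried nearly all Med13l junction reads. Over the 24 libraries it had 1483 reads, 97.7% of the gene's total, and 30 to 103 reads in each library. The exons 3 to 4 circle had 35 reads in all, at most 6 in a library and none in 8 libraries. Values are given as normalized reads, the authors' scaled junction reads with a constant of 0.01 removed; 1 read was worth 0.642 to 1.57 of them. On that scale exon 2 averaged 62.2 and exons 3 to 4 averaged 1.33, a ratio of 46.8.

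By mean level, the exon 2 circle was the second most abundant of the 1717. Above it stood exon 2 of Nfix, which encodes a nuclear factor I protein, at a mean of 179.4 normalized reads. Next below were Mmp15 exons 2 to 3 (a membrane-type metalloproteinase) at 39.2, Rnf169 exons 2 to 4 (a ubiquitin ligase of the DNA damage response) at 36.3 and Lrch3 exons 2 to 6 at 34.6. The exons 3 to 4 circle ranked 1230. Within single libraries Med13l exon 2 ranked second in 6 of 11 TAC and 10 of 13 sham libraries; its lowest place was 8 in TAC and 4 in sham.

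The exon 2 circle took a mean of 1.08% ± 0.351 (SD, n = 24) of all junction reads. The share averaged 0.835% ± 0.154 in TAC libraries (SD, n = 11; lowest 0.671%, median 0.757%, highest 1.11%). It averaged 1.29% ± 0.338 in sham libraries (SD, n = 13; lowest 0.773%, median 1.24%, highest 1.72%). The lowest share, in TAC replicate 4 at 1 week, had a 95% Wilson interval of 0.491% to 0.916%. The highest, in sham replicate 1 at 1 week, had an interval of 1.39% to 2.13%. Sham replicate 3 at 1 week, at 0.800%, had an interval of 0.561% to 1.14%, which does not meet that of sham replicate 1, so sham libraries of one time differed by more than counting error. These intervals cover counting error only.

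The exon 2 circle had a lower mean in TAC than in sham fibroblasts at each time, by a wider margin at 1 and 4 weeks than at 8 weeks. At 1 week it measured 52.3, 43.1, 46.9 and 37.9 normalized reads in TAC replicates 1 to 4, against 103.0, 72.3, 45.1 and 87.9 in sham replicates 1 to 4. The TAC libraries were tightly grouped, and sham replicate 3 lay among them. The means were 45.1 ± 6.06 in TAC and 77.1 ± 24.7 in sham (SD, n = 4 each), a log2 difference of -0.71 ± 0.24 (SE, limma on log2 of normalized reads + 0.5). Same-numbered TAC and sham libraries deviated together weakly at 1 week. With the replicate number as a block the difference was -0.71 ± 0.20, also given as a description.

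At 4 weeks the exon 2 circle measured 59.2, 40.3, 40.7 and 56.5 normalized reads in TAC replicates 1 to 4, against 90.6, 83.3, 60.7, 97.7 and 94.9 in sham replicates 1 to 5. The 2 groups did not overlap: the highest TAC library, at 59.2, was just under the lowest sham library, at 60.7. Of all 1717 circular RNAs, 1.22% had every TAC library below every sham library at 4 weeks. The means were 49.2 ± 10.1 in TAC (SD, n = 4) and 85.5 ± 14.8 in sham (n = 5), a log2 difference of -0.79 ± 0.22. TAC libraries were also deeper at 4 weeks, at 7980 ± 940 junction reads against 5666 ± 1188 in sham; the part of depth in the difference was not tested.

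At 8 weeks the exon 2 circle measured 39.5, 43.9 and 64.3 normalized reads in TAC replicates 1 to 3, against 43.6, 51.7, 66.4 and 71.1 in sham replicates 1 to 4. TAC replicate 3 lay above 2 of the 4 sham libraries. The means were 49.2 ± 13.2 in TAC (SD, n = 3) and 58.2 ± 12.7 in sham (n = 4), a log2 difference of -0.24 ± 0.25. It was -0.45 without TAC replicate 3 and -0.10 without TAC replicate 1, so single libraries move it by more than 1.5 times.

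Averaged over the 3 times with equal weight, the log2 difference of TAC minus sham was -0.58 ± 0.14, a fold of 0.667. Level by level, TAC libraries averaged 47.7 ± 8.98 normalized reads (n = 11, 37.9 to 64.3) and sham libraries 74.5 ± 20.2 (n = 13, 43.6 to 103.0). The value was below the sham mean of its time in 10 of 11 TAC libraries. Among all 1717 circular RNAs the averaged comparison called 11 (0.641%) at an adjusted p of 0.05 with limma, 5 of them lower in TAC (0.291%). The calls numbered 25 (1.46%) at 1 week, 2 (0.116%) at 4 weeks and 0 (0%) at 8 weeks, where 104 had an unadjusted p below 0.05 and limma-voom also called 0. The exon 2 circle was one of the 11 and was not called at any single time in this fit. These comparisons share libraries with each other and were known when the gene was chosen, so nothing is read from the calls. In bulk RNA, fewer cells carrying a circle and less of it per cell cannot be told apart.

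**Figure D2:**
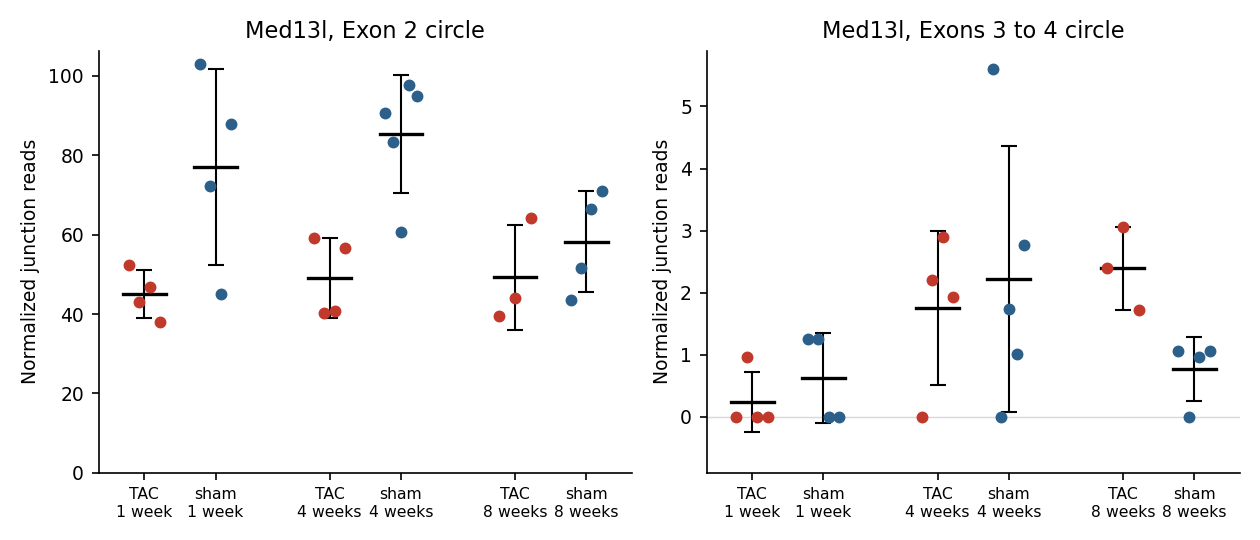
Normalized junction reads of both Med13l circles in each library (points; TAC red, sham blue) at 1, 4 and 8 weeks, with the group mean (line) and SD (bar). For exon 2 all 4 TAC libraries at 4 weeks lie at or below 59.2 and all 5 sham libraries at or above 60.7, while at 8 weeks the groups interleave; the exons 3 to 4 panel runs from 0 to 5.61.

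The order of the 6 groups by mean exon 2 level was sham at 4 weeks, sham at 1 week, sham at 8 weeks, TAC at 8 weeks, TAC at 4 weeks and TAC at 1 week. Each neighbouring pair in that order had overlapping ranges. The 3 TAC means lay between 45.1 and 49.2 normalized reads, a narrow band, and the 3 sham means between 58.2 and 85.5.

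Time differences within sham and within TAC were not used to choose the gene, so they were tested, although age and time run together. They share libraries with the comparisons that were used. In sham fibroblasts the log2 difference of the exon 2 circle at 8 weeks against 4 weeks was -0.56 ± 0.22, with an unadjusted p of 0.0129 and an adjusted p of 0.620 in limma. It was -0.37 ± 0.24 at 8 weeks against 1 week (adjusted p = 0.733) and 0.19 ± 0.22 at 4 weeks against 1 week (adjusted p = 0.885). None of the 3 sham differences passed the threshold. Across all circular RNAs limma called 0 (0%) between 8 and 4 weeks and between 4 and 1 weeks in sham, and 2 (0.116%) between 8 and 1 weeks. At an unadjusted p below 0.05 there were 119, 130 and 129 circular RNAs in these 3 comparisons, in the order given, and limma-voom called 0, 0 and 1.

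In TAC fibroblasts none of the time differences of the exon 2 circle passed the test. The log2 difference was 0.11 ± 0.24 at 4 weeks against 1 week (limma adjusted p = 0.979), 0.10 ± 0.25 at 8 weeks against 1 week (adjusted p = 0.960) and -0.0075 ± 0.25 at 8 weeks against 4 weeks (adjusted p = 0.997). The change of the TAC effect between times was computed as an interaction. It is built from the TAC minus sham differences known when the gene was chosen, so its p-values are given as a description. It was -0.08 ± 0.32 for 4 weeks minus 1 week (limma adjusted p = 0.978), 0.47 ± 0.35 for 8 weeks minus 1 week (adjusted p = 0.738) and 0.55 ± 0.34 for 8 weeks minus 4 weeks (adjusted p = 0.780). In the TAC time comparisons and these interactions limma called 0 (0%) of all circular RNAs, with 71 to 148 at an unadjusted p below 0.05 and 0 to 2 called by limma-voom. The smaller TAC effect at 8 weeks is therefore a description, and these p-values give no test of it against 1 or 4 weeks. The standard errors of the interactions are of the size of the effects compared. The values thus show neither a change between times nor that the times are alike.

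The exons 3 to 4 circle of Med13l was too scarce for a firm comparison. It had 1 read in the 4 TAC and 2 in the 4 sham libraries at 1 week, 10 in the 4 TAC and 12 in the 5 sham libraries at 4 weeks, and 7 in the 3 TAC and 3 in the 4 sham libraries at 8 weeks. At 8 weeks it measured 2.39, 3.07 and 1.71 normalized reads in TAC replicates 1 to 3, against 1.06, 0, 0.962 and 1.06 in sham replicates 1 to 4. These groups did not overlap, and 3.09% of all circular RNAs had every TAC library above every sham library at 8 weeks. The log2 difference of 1.30 ± 0.88 did not pass the test (limma adjusted p = 0.874). At 1 week it was -0.52 ± 0.81 (adjusted p = 0.869), at 4 weeks -0.15 ± 0.77 (adjusted p = 0.981), and averaged 0.21 ± 0.47 (adjusted p = 0.972). The largest difference between times was in TAC, at 2.12 ± 0.88 for 8 weeks against 1 week (unadjusted p = 0.0158, adjusted p = 0.521).

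The kinase module list held 7 genes, and 4 of them had a circular RNA in the table: Med13l, Cdk8, Cdk19 and Med12l. No circular RNA was listed for Ccnc, Med12 or Med13, the paralog of Med13l. Beside the 2 Med13l circles there were 6, and none of the 6 passed the test in either direction at any time or averaged, with limma or limma-voom; 2 of them had an unadjusted p below 0.05 in the average. With the exons 3 to 4 circle of Med13l added, the averaged log2 difference was positive for 6 of 7 and negative for 1, with a median of 0.16, against 0.06 over all 1717.

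Cdk8, the kinase of the module, gave 4 overlapping circles that share exons 4 and, in 3 of them, exon 6. The 40 bases across 3 of these back-splices are shown to tell them apart, with the last 20 bases of the downstream exon in lower case and the first 20 of the upstream exon in capitals.
Cdk8 exons 2 to 4: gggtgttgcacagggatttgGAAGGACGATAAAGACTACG
Cdk8 exons 3 to 6: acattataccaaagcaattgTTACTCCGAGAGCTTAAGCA
Cdk8 exons 2 to 6: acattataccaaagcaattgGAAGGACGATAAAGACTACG
Exons 2 to 4 and exons 2 to 6 share their acceptor exon, and exons 3 to 6 and exons 2 to 6 share their donor exon.

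The 2 abundant Cdk8 circles had close means in TAC and sham libraries, and neither difference passed the test. Exons 2 to 4 averaged 12.2 ± 4.47 normalized reads in TAC (SD, n = 11) and 10.8 ± 4.23 in sham libraries (n = 13), with an averaged log2 difference of 0.16 ± 0.27 (limma adjusted p = 0.930). Exons 3 to 6 averaged 11.2 ± 3.39 in TAC and 11.2 ± 5.87 in sham, with a difference of 0.17 ± 0.27 (adjusted p = 0.928). They ranked 69 and 71 by mean level.

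The Cdk8 circle of exons 2 to 6 had 41 reads in 11 TAC libraries and 18 reads in 13 sham libraries. It was seen in 11 of 11 TAC and 10 of 13 sham libraries, and ranged from 0.726 to 7.61 normalized reads in TAC and from 0 to 5.21 in sham. The averaged log2 difference was 1.11 ± 0.44, which did not pass (unadjusted p = 0.0127, adjusted p = 0.283). The Cdk8 circle of exons 4 to 6 had 15 reads in TAC and 15 in sham libraries, with a difference of 0.0021 ± 0.47 (adjusted p = 0.998).

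Med12l, a paralog of the MED12 subunit that activates the kinase, had 1 circle of exons 2 to 4. It had 5 reads in 4 of 11 TAC libraries and 23 reads in 9 of 13 sham libraries. TAC values ran from 0 to 1.54 normalized reads and sham values from 0 to 5.30, so the groups overlapped. The averaged log2 difference of -1.12 ± 0.47 did not pass (unadjusted p = 0.0180, adjusted p = 0.336). The circle of Cdk19, the alternative kinase, joined exons 6 to 8 and had 15 reads in TAC and 16 in sham libraries, with a difference of 0.14 ± 0.47 (adjusted p = 0.976).

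**Figure D3:**
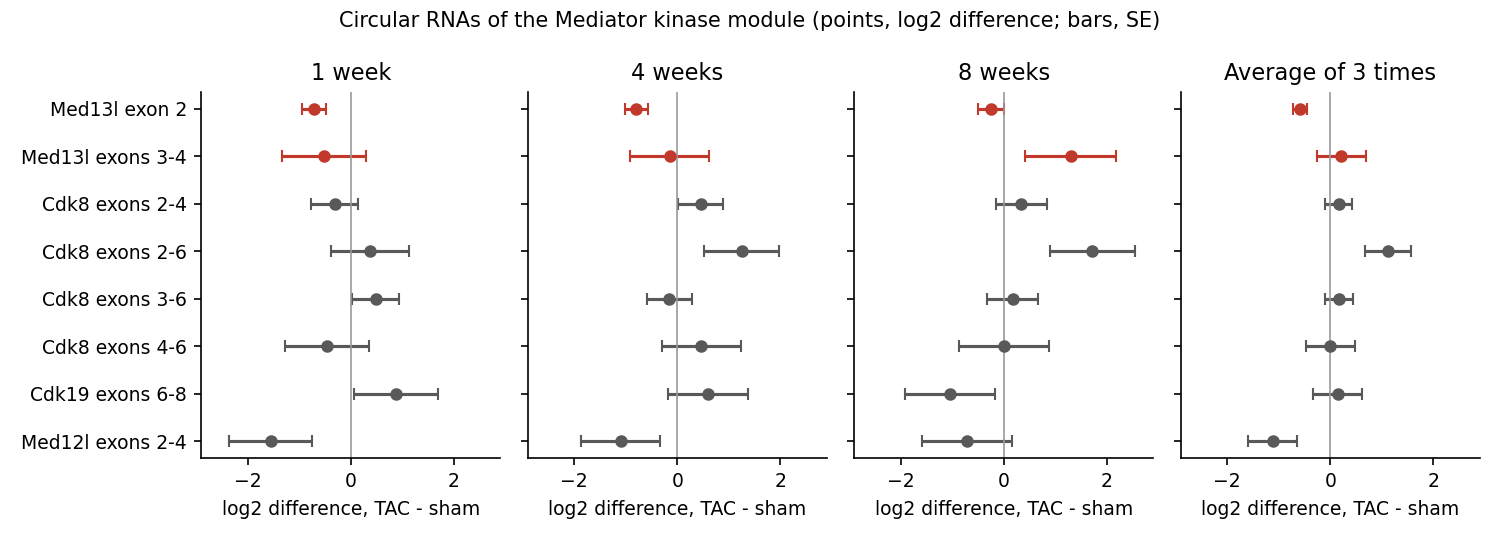
Log2 difference of TAC minus sham (points) with SE (bars) for the 8 circular RNAs of the kinase module at 1, 4 and 8 weeks and averaged; Med13l in red, the others in grey. Med13l exon 2 has the shortest bars and lies at -0.58 in the average, Med12l at -1.12 and Cdk8 exons 2 to 6 at 1.11, both with wide bars.

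Genes that work with the module were taken from 4 more lists: core Mediator, RNA polymerase II transcription, cohesin and enhancer coactivators, and the turnover of MED13. Together with the kinase module these lists held 106 genes, of which 20 had a circular RNA, and 28 circles without Med13l exon 2. In the average of the 3 times 20 were positive and 8 negative, with a median log2 difference of 0.17, against 0.06 over all circular RNAs. One was called, higher in TAC, and 0.349% of all circular RNAs were called higher there. At 1, 4 and 8 weeks limma called 0 of the 28, with 1, 0 and 2 at an unadjusted p below 0.05.

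The called circle was Aff3 exons 3 to 5; Aff3 belongs to the family of scaffolds of transcription elongation complexes. It averaged 12.9 ± 3.82 normalized reads in TAC and 4.14 ± 2.47 in sham libraries at 1 week (SD, n = 4 each). At 4 weeks it averaged 6.66 ± 1.25 in TAC and 4.85 ± 2.80 in sham, and at 8 weeks 9.34 ± 5.52 in TAC and 2.41 ± 1.81 in sham. The averaged log2 difference was 1.39 ± 0.34 (limma adjusted p = 0.00984). The call was lost without sham replicate 3 at 8 weeks, without TAC replicate 1 at 8 weeks, and with a pseudocount of 0.1.

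None of the other named circles of these lists passed the test. Aff1 exons 2 to 3, from a scaffold of the super elongation complex, differed by 0.54 ± 0.39 (limma adjusted p = 0.678). Crebbp, a histone acetyltransferase and coactivator, gave circles of exons 4 to 5 and exons 3 to 5, at 0.17 ± 0.43 (adjusted p = 0.973) and 0.38 ± 0.43 (adjusted p = 0.839). Kmt2c exons 24 to 25, from an enhancer histone methyltransferase, differed by 0.30 ± 0.47 (adjusted p = 0.926) and Taf4 exons 13 to 14, from a subunit of the general factor TFIID, by -0.18 ± 0.47 (adjusted p = 0.973). Core Mediator contributed 1 circle, Med15 exons 6 to 8, at -0.02 ± 0.47 (adjusted p = 0.991). Fbxw7, the substrate receptor of the ubiquitin ligase that targets MED13 and MED13L for degradation, gave a circle of exon 4 at 0.20 ± 0.47 (adjusted p = 0.973). Skp1a exons 2 to 5, from an adaptor of the same ligase, differed by 0.75 ± 0.47 (adjusted p = 0.599).

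The exon 2 circle was next compared with the 87 other circular RNAs that had a mean of 10 reads or more. Apart from Nfix, all were scarcer than exon 2, at a mean of 39.2 normalized reads or less. Likeness was Pearson's r of log2 values over the 24 libraries, given as a description; the points share their library, its scaling and the difference between operations. The median r was 0.06. The most alike was the exon 2 circle of Nfix, at r = 0.68 over all libraries and 0.63 after group means were removed. Next were Ehmt1 exons 16 to 18 (a histone methyltransferase, r = 0.62, within groups 0.38), Rftn1 exons 5 to 6 (a lipid raft protein, 0.58 and 0.60), Atxn1 exons 2 to 4 (a transcriptional corepressor, 0.56 and 0.23) and Adgre1 exons 11 to 12 (a macrophage surface receptor, 0.55 and 0.58). For Nfix, Rftn1 and Adgre1 the likeness was thus close also among libraries of a group, and for Ehmt1 and Atxn1 it was looser. This order is by r over all libraries. Within groups, Fam160b1 exons 6 to 7 (0.70, over all libraries 0.21) and Adgre1 exons 6 to 7 (0.64 and 0.40) stood above Nfix.

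The least alike were Nfkb1 exons 2 to 6, from a subunit of the inflammatory transcription factor NF-kappaB (r = -0.68, within groups -0.52), Mettl9 exons 2 to 4, from a protein methyltransferase (-0.64 and -0.64), and Cnot6l exons 2 to 4, from an mRNA deadenylase (-0.61 and -0.37). Nfix averaged 140 ± 34.7, 179 ± 30.9 and 164 ± 32.0 normalized reads in TAC at 1, 4 and 8 weeks, against 196 ± 75.5, 206 ± 37.4 and 180 ± 38.6 in sham. Its averaged log2 difference was -0.25 ± 0.09 (limma adjusted p = 0.172). The least alike circles had positive averaged differences, Nfkb1 of 0.76 ± 0.18 (limma adjusted p = 0.00822). Mettl9 differed by 0.82 ± 0.24 (adjusted p = 0.0751) and Cnot6l by 0.64 ± 0.28 (adjusted p = 0.409). At 1 week Mettl9 was called higher, by 1.83 ± 0.41 (limma adjusted p = 0.0068). Of all circular RNAs, 0.349% were called higher in the average and 0.757% at 1 week. The r over all libraries includes these differences.

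**Figure D4:**
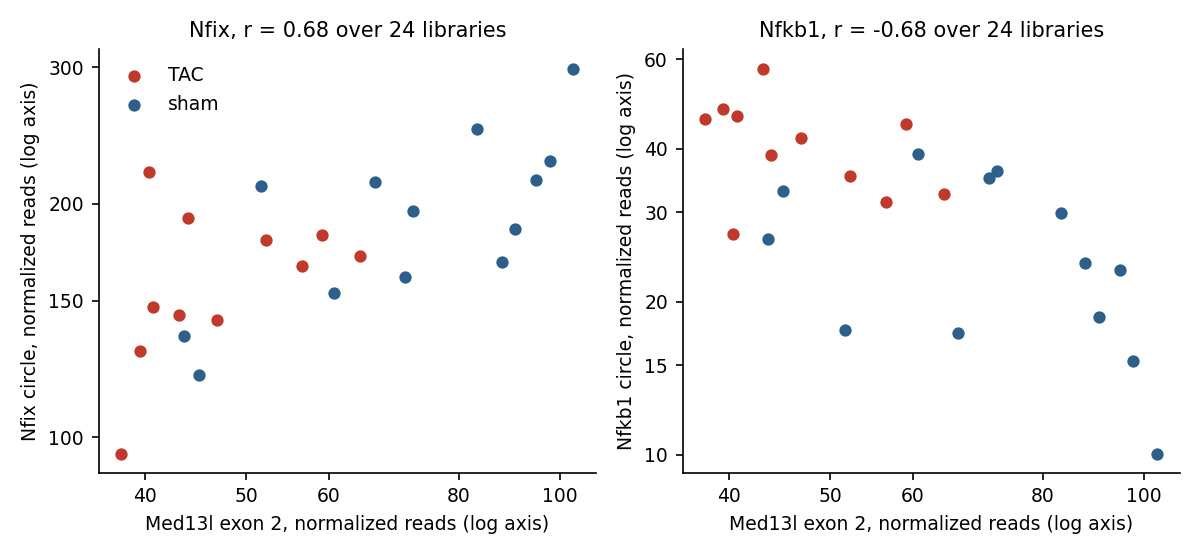
Normalized reads of the Nfix exon 2 circle (left) and the Nfkb1 exons 2 to 6 circle (right) against those of Med13l exon 2 in the 24 libraries, on log axes (TAC red, sham blue). Nfix is high where Med13l is high (r = 0.68) and Nfkb1 is low there (r = -0.68), with TAC libraries towards the left of each panel.

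Circular RNAs of marker genes for several cell types were present, and some moved with the exon 2 circle. No circular RNA was listed for the fibroblast genes Pdgfra, Tcf21, Col1a1 and Col1a2 or for the muscle genes Myh6, Myh7 and Tnnt2, so the label of the cells could be checked only through other markers. Fibroblast markers gave 10 circles of 6 of 30 genes, Dcn and Fbn1 among them, and their summed level ranged from 20.4 to 40.9 normalized reads in TAC and from 9.58 to 31.2 in sham libraries. Of the 10, limma called 1 higher in TAC in the average, where 0.349% of all circular RNAs were called higher, and 0 at each time. Cardiomyocyte markers gave 17 circles of 11 of 40 genes, Ttn and Ryr2 among them, at 25.4 to 64.4 in TAC and 44.2 to 148.8 in sham. Of these 17 circles limma called 2 lower in TAC at 1 week, 2 at 4 weeks, 0 at 8 weeks and 2 in the average. Among all circular RNAs 0.699%, 0.116%, 0% and 0.291% were called lower, in that order. Macrophage and leukocyte markers gave 22 circles of 7 of 26 genes, Adgre1 and Mrc1 among them, at 69.7 to 150.7 in TAC and 81.1 to 177 in sham. Of the 22, limma called 0 at each time and in the average.

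The remaining marker lists gave fewer circles. Endothelial markers gave 7 circles of 4 of 18 genes, Pecam1 and Flt1 among them, and summed to 9.98 to 23.1 normalized reads in TAC and 7.54 to 23.1 in sham libraries. Of 10 genes of pericytes and smooth muscle only Abcc9 had a circle, 1 in all, at 0.973 to 6.76 in TAC and 0 to 11.0 in sham; its mean was lower in TAC at each time. Cell cycle genes gave 4 circles of 2 of 20 genes, Bub1b and Cdkn3. Their sum averaged 28.5 ± 10.3 in TAC and 6.92 ± 3.07 in sham at 1 week (SD, n = 4 each), 6.77 ± 3.49 in TAC and 10.6 ± 3.24 in sham at 4 weeks, and 12.8 ± 3.12 in TAC and 6.26 ± 1.70 in sham at 8 weeks. At 1 week limma called 2 of these 4 higher in TAC, and none at the other times or in the average. Of all circular RNAs, 0.757% were called higher at 1 week. None of the endothelial circles nor the Abcc9 circle was called at any time or in the average.

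Across the 24 libraries the exon 2 circle correlated with the summed macrophage and leukocyte markers at r = 0.55, and at 0.66 after group means were removed. Adgre1 circles are part of that sum, with exons 11 to 12 at a mean of 33.4 normalized reads. The value is thus not separate from the likeness of Adgre1 given above. Vav3 exons 16 to 19, also in the sum, had r = -0.02 over all libraries and 0.33 within groups. With the cardiomyocyte sum r was 0.14 over all libraries and -0.62 within groups, so the sum was lower in TAC, as exon 2 was, but ran against it among libraries of a group. With the fibroblast sum r was -0.10 and 0.50, and with the endothelial sum -0.29 and -0.24. For Abcc9, the only gene of the pericyte and smooth muscle list with a circle, r was 0.44 and 0.46. A single gene does not stand for those cells. With the cell cycle sum r was -0.22 and 0.01, and with the number of junction reads -0.12 and 0.19. These correlations are descriptions over 24 libraries that share their scaling, and the part of other cell types in the exon 2 difference was not tested.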

How the data were processed

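Stranded total RNA depleted of ribosomal RNA was sequenced from 24 libraries, per the labels' protocols. FastQC, Trimmomatic, STAR and mm10 appear, unversioned, in the submitters' processing notes. The table's name refers to the caller DCC, whose settings are not stated. What the authors deposited is a normalized signal: whole junction reads divided by a library factor, plus 0.01. With that offset removed, all values were whole reads within a tolerance of 0.001 of a read per read counted. The tolerance thus grows with the count and is loose for the most abundant circles. Low counts limit precision: 1 to 3 reads of a scarce circle can set its value.

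Host genes and exons came from GENCODE M21. limma 3.58.1 (R 4.3.3, trend option) was run on log2(normalized reads + 0.5) for all 24 libraries in 6 groups without covariates, with Benjamini-Hochberg adjustment over 1717 circular RNAs and calls at 0.05. The low-value filter (2 or more reads in 3 or more libraries) removed 0. The planned edgeR fit was not run, because the values as deposited carry the offset and the whole reads could not be checked against them directly; limma-voom on the reads after removal of the offset took its place, and TMM and median-of-ratios factors were computed directly. Differences on this scale understate changes of scarce circles. The fit was tested on simulated data with changes larger than the exon 2 difference, set in circles that were not scarce. It does not cover smaller changes or scarce circles. Within groups, 37 library pairs were compared, and 0 held identical values.

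Same-numbered TAC and sham libraries at 1 week deviated together weakly (r = 0.257, 0.155, 0.231 and 0.161 over 272 circles averaging 5 or more reads). TAC replicates 1 to 3 were most like the sham library of their number, and TAC replicate 4 was most like sham replicate 3. Whether the numbers pair the libraries is not established. Other settings were pseudocounts of 0.1 and 1, filters, scalings, a replicate block, fits of the compared groups alone and each library left out. Named circles were those of Med13l and the kinase module, the called or 3 most abundant of each other pathway list, the neighbours of Med13l exon 2 in level, and the 5 most and 3 least alike. The members and lists were chosen with earlier results of these data known.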

Additional observations from a re-analysis of the deposited data

Results flagged for a closer look

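Within groups of 4 or 5 libraries, 50 sets of values were examined for a single library far from the rest, and 6 had one; chance gives about 1 in 20. The Med13l exons 3 to 4 circle measured 0.9585 normalized reads in TAC replicate 2 at 1 week, where the other 3 libraries had 0, and it measured 0 in sham replicate 2 at 8 weeks, where the others had 0.962 to 1.06. The Cdk19 circle measured 1.034 in sham replicate 4 at 1 week and the Med12l circle 1.4523 in TAC replicate 3 at 4 weeks, with 0 in the other libraries of each group. Each of these rests on a difference of 1 or 2 reads. The Cdk8 exons 2 to 6 circle measured 4.1361 in sham replicate 4 at 1 week, against 1.25 to 1.50 in the others. The summed cardiomyocyte marker circles reached 138.841 normalized reads in sham replicate 3 at 4 weeks, against 44.2 to 70.7 in the other 4; that library also had the lowest Med13l exon 2 value of its group, 60.7.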

How the results depend on the processing

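The exon 2 differences between TAC and sham chose the gene, so their range is given and calls are no support. The call in the average was lost without TAC replicate 1 at 8 weeks. The averaged difference ranged from -0.64 to -0.53 over 9 other settings and from -0.66 to -0.53 with each library left out. With a library left out it was -0.95 to -0.55 at 1 week (without sham replicate 3 and sham replicate 1), -0.91 to -0.71 at 4 weeks and -0.45 to -0.10 at 8 weeks. Same-numbered libraries had r = 0.012, 0.081, 0.135 and -0.190 at 4 weeks and 0.206, 0.169 and -0.018 at 8 weeks. At 8 weeks TAC replicates 1 and 2 were most like the sham library of their number, and TAC replicate 3 was most like sham replicate 4. The replicate block called exon 2 at 1 week (-0.71) and changed no other call among the results recomputed.

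Small differences between times turned sign, and the cause was not tested. The exon 2 difference of TAC at 8 against 4 weeks was 0.016 with total junction reads, 0.036 with limma-voom, and -0.21 to 0.13 with a library left out. With a library left out, sham at 4 against 1 week ran from -0.043 to 0.35, TAC at 8 against 1 week from -0.10 to 0.25, and the TAC effect at 4 against 1 week from -0.24 to 0.15. The exons 3 to 4 difference at 4 weeks was 0.027 with the replicate block and -0.65 to 0.48 with a library left out. The number of list circles called in the average, 1, was 0 with a pseudocount of 0.1 and 0 to 1 with a library left out. In all, 690 recomputed values kept direction or moved little, 15 turned sign and 3 counts moved. For exon 2 between TAC and sham these numbers do not follow the side of the threshold. Uncalled at single times in the main fit, it was called at 4 weeks in 2 of 10 other settings and 3 of 24 leave-one-out fits. At 1 week it was called in 1 of 10 and 1 of 24. Under TMM scaling the median over all circular RNAs was 0.11 in the average, against 0.06. Depth limits the exons 3 to 4, Cdk19 and Med12l circles, with 35 reads or fewer each.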
